A study of Homo sapiens with 24 samples.

Results

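HCC1806 cells whose genome had doubled by fusion of whole cells were set beside the parental HCC1806 population from which they came. HCC1806 is an established human breast cancer line of the triple-negative type (TNBC, without the hormone receptors or HER2), with basal epithelial features. The comparison took all libraries labelled as HCC1806 fusion or HCC1806 control, 6 of the 24 libraries of the series, with 3 biological replicates in each group. Cells doubled by fusion were isolated by fluorescence-activated cell sorting and then expanded, and the aneuploid parental population kept in culture was the control. No transgene, drug arm or further treatment is given for either group. Of the other libraries, 6 held HCC1806 cells doubled in either of the other ways, slippage (exit from mitosis with no division) and failure of cytokinesis, and 12 held the same 4 populations of MDA-MB-231, a mesenchymal-like TNBC line. Every population was seeded at 200000 cells per well and grown for 48 hours before polyadenylated RNA was read by TAGseq, which sequences the 3′ ends of transcripts. The labels describe 1 fused population, so fusion and the particular population that came out of sorting and expansion cannot be told apart, and the p-values measure only the spread between replicates of these populations.

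Whole-genome doubling gives a cell a further copy of its whole set of chromosomes. Doubling by fusion joins the nuclei and centrosomes of 2 separate cells, whereas slippage and failed cytokinesis leave both genomes of a single cell cycle in 1 cell. Doubled cancer cells are known to divide with multipolar or unstable spindles and to lose chromosomes as they are passaged. In basal breast cells, keratins KRT5 and KRT14, laminin-332 and the integrins that bind it hold the cell to its basement membrane, and ligands of the receptor EGFR drive growth.

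Totals of estimated counts ran from 3310556 to 3486753 in fusion libraries and from 3060622 to 3811159 in controls. Between 14706 and 15125 genes had at least 1 count in a library, and pairs of replicates differed by more than counting noise, the chi-square divided by its degrees of freedom being 1.34 to 1.60, so no library was a repeat of another. Summed markers of basal epithelium were 1960 to 2030 counts per 1000000 (CPM) in fusion libraries and 2230 to 2280 CPM in controls. Hormone receptor and HER2 genes summed to 46.2 to 49.0 CPM in fused cells and 50.9 to 54.2 CPM in controls, with 1 of 4 at 0 in all 6 libraries. Of 9 immune markers in the tables, 8 were under 1 CPM in all 6 libraries and 4 were at 0 in all of them. Of 7 endothelial markers, 6 were under 1 CPM throughout. Markers of fibroblasts summed to 13.7 to 18.1 CPM in fused cells and 29.7 to 41.3 CPM in controls, from MFAP5, THY1 and COL1A1 in the main, with 6 of 10 under 1 CPM and 4 at 0 in all 6 libraries. Markers of nerve cells summed to 2.91 to 3.73 CPM in fusion libraries and 3.55 to 6.53 CPM in controls, with 4 of 5 under 1 CPM. Whether contaminating cells had a part in any result was not tested. CPM is a share of each library's RNA, so fewer cells carrying a transcript and less of it per cell cannot be told apart, and a change in total RNA per cell is not visible.

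Fused HCC1806 cells differed from their parental population by many small changes. With edgeR's quasi-likelihood test (Benjamini-Hochberg adjusted p below 0.05), 1247 of 11467 genes were called (10.9% of those tested). Of these, 611 were higher in fused cells (5.33%) and 636 lower (5.55%), and the median change was 0.29 on the log2 scale among the risen genes and -0.35 among the fallen. Changes of at least 2-fold were seen in 86 called genes (0.75%), 24 of them higher (0.209%) and 62 lower (0.541%). DESeq2 called 630 genes, 305 higher and 325 lower, and limma-trend on log2(TPM + 1) called 706, 234 higher and 472 lower. The 3 fusion libraries lay wholly above or below the 3 controls in 3054 genes (26.6%). Replicates varied with a biological coefficient of variation of 3.88%. Below, levels are CPM in each library in the order of replicates 1 to 3, changes are log2 fold changes of fusion over control ± standard error, adjusted p-values are edgeR's, and a gene is said to rise, fall or be called only below that threshold.

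Secreted and matrix proteins were among the largest falls. These were taken from called genes whose average level was at least 2 in log2 CPM and whose groups did not overlap. DKK3 (chromosome 11, 11963036 to 12009745), a secreted member of the Dickkopf proteins, had 0.590, 0.871 and 0.305 CPM in fused cells against 7.35, 6.63 and 9.31 CPM in controls (-3.65 ± 0.42, adjusted p = 4.87e-11). The matrix glycoprotein tenascin-C (TNC, chromosome 9, 115019575 to 115118157) had 1.18, 1.16 and 1.22 CPM in fusion libraries and 7.08, 5.63 and 8.02 CPM in controls (-2.53 ± 0.36, adjusted p = 7.00e-08). No fusion library held more than 1.22 CPM of either gene and no control less than 5.63 CPM, separation of the groups being part of that rule. GREM1, a secreted antagonist of bone morphogenetic proteins (chromosome 15, 32718004 to 32745106), had 9.73, 11.6 and 12.5 CPM in fused cells and 33.2, 45.1 and 33.1 CPM in controls (-1.70 ± 0.15). MFAP5, a protein of elastic microfibrils, had 5.60, 7.55 and 7.01 CPM against 27.8, 19.6 and 18.1 CPM in controls (-1.70 ± 0.19). Cell-surface and signalling proteins fell with them. The receptor phosphatase PTPRG had 0, 1.74 and 0.609 CPM in fused cells and 4.90, 3.31 and 5.43 CPM in controls (-2.50 ± 0.48). The purine transporter SLC43A3 had 3.83, 2.32 and 6.40 CPM and 11.7, 11.6 and 15.8 CPM (-1.65 ± 0.28). The thyroid hormone deiodinase DIO2 had 13.9, 12.8 and 14.02 CPM and 31.6, 31.8 and 37.2 CPM (-1.31 ± 0.14). The PDZ-domain protein PDZD2 (-1.46 ± 0.22) and the ubiquitin ligase subunit FBXO2 (-1.40 ± 0.28) fell too. Among cancer-testis antigens, proteins normally made in germ cells, MAGEC2 had 2.36, 3.19 and 3.05 CPM in fused cells and 13.6, 14.3 and 9.83 CPM in controls (-2.10 ± 0.27), while MAGEA10 rose by 0.67 ± 0.12. The largest adjusted p among the genes of this paragraph was 0.000129, and leaving out any 1 of the 6 libraries kept all of these calls.

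By the same rule, the largest rises were in genes of low to moderate expression. NEFH, the neurofilament heavy chain (chromosome 22, 29480218 to 29491390), had 23.9, 26.99 and 17.98 CPM in fused cells against 7.08, 4.64 and 7.24 CPM in controls (1.83 ± 0.21, adjusted p = 1.03e-10). The tight junction protein CLDN8 (chromosome 21, 30214006 to 30216097) had 7.37, 6.09 and 5.79 CPM in fused cells and 1.63, 2.98 and 1.81 CPM in controls (1.60 ± 0.36). IGF2BP1, an oncofetal RNA-binding protein, had 16.8, 17.7 and 21.9 CPM and 8.16, 4.97 and 8.54 CPM (1.35 ± 0.20). In each, all 3 fusion libraries lay above all 3 controls, which the rule for the largest changes requires. The membrane serine protease TMPRSS4 rose by 1.12 ± 0.25 and the water and glycerol channel AQP3 by 0.91 ± 0.097, with 64.0, 70.5 and 62.5 CPM in fused cells and 36.7, 35.5 and 32.8 CPM in controls. Neuronal cytoskeletal genes moved in both directions. The intermediate filament gene INA, at 2.95, 0.871 and 1.83 CPM in fused cells and 8.44, 9.28 and 6.21 CPM in controls (-2.05 ± 0.34), and the microtubule protein MAP1B (-1.07 ± 0.22) fell, whereas gamma-synuclein (SNCG, 1.00 ± 0.11) and the tubulin TUBB3 (0.29 ± 0.055) rose. Of 16 tested genes of that list, 4 rose and 2 fell. The largest adjusted p among the called genes named here was 0.000683.

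**Figure D1:**
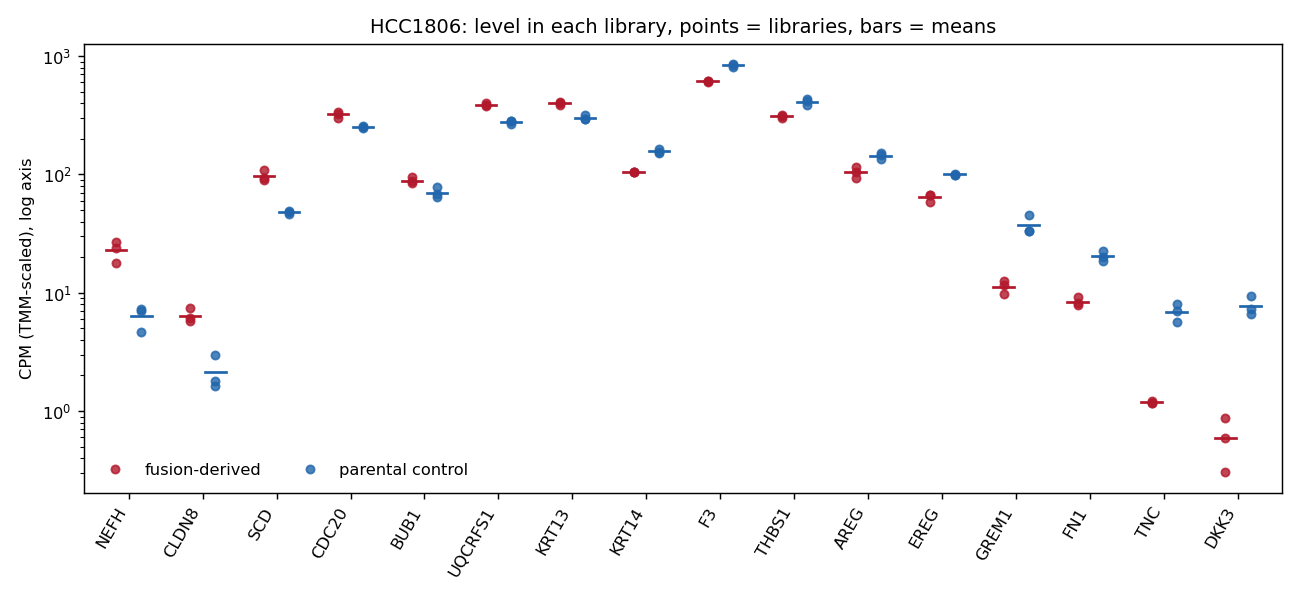
CPM on a log axis in each library for named genes of the main groups, with the 3 fusion libraries left of the 3 controls of HCC1806 (points are libraries, bars are means). NEFH, CLDN8 and SCD lie higher in all fusion libraries than in all controls, and GREM1, FN1, TNC and DKK3 lie lower.

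Growth factor signalling through EGFR and ERK had the largest share of called members of the 29 gene lists in edgeR's test. The pathway runs from ligands shed at the surface, through receptors such as EGFR and MET, to ERK, whose target genes include transcription factors and the phosphatases and adaptors that dampen the signal. Of 36 tested members, 14 fell and 2 rose (44.4%, beside 10.9% of all genes), and the median change was -0.23, beside -0.003 over all genes. Only 5 of the 36 had a change above 0. Calls were more frequent among genes of high level, and no list was set beside genes of like level. In the quintile of highest level (log2 CPM from 6.63) 14.1% of genes rose and 11.6% fell, and in the lowest 1.3% rose and 2.65% fell. Without fusion replicate 1, control replicate 1 or control replicate 3 the fallen members numbered 8, and with DESeq2 they numbered 6.

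Among the ligands, 4 of 5 tested fell. Epiregulin (EREG) had 58.4, 66.5 and 67.3 CPM in fused cells and 99.6, 102 and 99.3 CPM in controls (-0.64 ± 0.076, adjusted p = 1.62e-10). Amphiregulin (AREG) had 93.8, 115 and 104 CPM and 146, 152 and 134 CPM (-0.46 ± 0.068, adjusted p = 1.72e-07). TGFA, transforming growth factor alpha, had 50.4, 57.2 and 70.4 CPM and 83.3, 81.5 and 77.1 CPM (-0.44 ± 0.084, adjusted p = 5.48e-05). Each fused library was below each control for all of these ligands. Epigen (EPGN), a further EGFR ligand that is not in the list, fell by 0.83 ± 0.21. Of the 8 receptors tested, 1 rose, the fibroblast growth factor receptor FGFR3 (0.59 ± 0.15), a call lost without fusion replicate 1 (adjusted p = 0.0875), and 2 fell, EGFR by 0.30 ± 0.079 and the hepatocyte growth factor receptor MET by 0.30 ± 0.058. The EGFR call was lost with DESeq2 and with both TPM fits, where its adjusted p reached 0.0662. The immediate early transcription factor EGR1 had 2.36, 5.80 and 5.79 CPM in fused cells and 13.9, 10.9 and 8.02 CPM in controls (-1.23 ± 0.28), its call being lost on log2(TPM + 0.1) (adjusted p = 0.0981). The proto-oncogene MYC fell by 0.27 ± 0.068 (adjusted p = 0.00365), a call that was lost without control replicate 2 (adjusted p = 0.0510). JUND, a member of the AP-1 family of transcription factors, rose by 0.38 ± 0.072, with 117, 120.5 and 108 CPM in fused cells and 91.7, 95.5 and 79.7 CPM in controls.

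EPGN, EREG and AREG are neighbours on the long arm of chromosome 4, and their start regions are shown because 5 successive tested genes there, IL8, CXCL1, EPGN, EREG and AREG, fell. The CXCL1 call was lost without fusion replicate 1 or 3 or control replicate 3 (adjusted p up to 0.206) and that of IL8 without 4 single libraries (up to 0.118). Sequences are RefSeq's on GRCh38.p14, 250 bases before to 50 after the start on the gene's strand, at chr4:74308220-74308519, chr4:74364895-74365194 and chr4:74444886-74445185, all on the plus strand. Capitals mark CCAAT, read as ATTGG when it lies on the other strand, and the TATAAA motif.
EPGN: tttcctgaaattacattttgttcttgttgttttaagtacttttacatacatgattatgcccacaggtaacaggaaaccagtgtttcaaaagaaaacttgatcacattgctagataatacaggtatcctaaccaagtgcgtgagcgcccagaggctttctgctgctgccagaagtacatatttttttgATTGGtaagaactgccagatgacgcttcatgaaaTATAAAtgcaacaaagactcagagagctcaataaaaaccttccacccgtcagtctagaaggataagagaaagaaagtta
EREG: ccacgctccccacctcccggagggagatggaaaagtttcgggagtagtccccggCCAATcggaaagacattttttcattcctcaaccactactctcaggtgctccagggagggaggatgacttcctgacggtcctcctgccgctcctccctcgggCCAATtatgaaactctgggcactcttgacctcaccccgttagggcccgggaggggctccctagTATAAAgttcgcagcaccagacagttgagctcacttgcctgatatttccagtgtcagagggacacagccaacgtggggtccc
AREG: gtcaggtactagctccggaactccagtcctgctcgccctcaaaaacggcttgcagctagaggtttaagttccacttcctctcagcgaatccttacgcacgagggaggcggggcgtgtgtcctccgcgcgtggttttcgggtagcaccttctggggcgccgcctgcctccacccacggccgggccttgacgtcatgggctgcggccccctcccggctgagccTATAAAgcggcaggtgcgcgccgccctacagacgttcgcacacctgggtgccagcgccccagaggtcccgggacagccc
TATAAA lay 29, 32 and 29 bases before the start in EPGN, EREG and AREG. That motif was found on either strand in 12% of 27305 promoter windows, in 5.13% of those of the tested genes, in 6.72% of those of the risen and in 7.69% of those of the fallen. EREG held CCAAT at 196 and 95 bases before the start. CCAAT was found in 35.7% of all windows, 37.5% of those of the tested genes, 38.0% of those of the risen and 36.2% of those of the fallen. The AP-1 motif TGANTCA was in 7.76% of all windows, 4.45% of those of the tested genes, 3.9% of those of the risen and 7.69% of those of the fallen. GGAATG and TTTGAA were searched as well. GGAATG was in 14% of all windows, 10.6% of those of the tested genes, 10.8% of the risen and 11.1% of the fallen. For TTTGAA the shares were 15.4%, 9.13%, 12.6% and 9.51% in the same order. Both strands were searched, and windows can hold several of the motifs. A match is a run of letters in this window, and no binding was measured.

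Matrix and mesenchymal genes fell, though HCC1806 expresses only part of that programme. Of 34 tested members of 51, 12 fell and 2 rose (41.2%, median -0.21). Fibronectin (FN1) had 9.14, 7.84 and 8.23 CPM in fused cells and 19.9, 22.5 and 18.6 CPM in controls (-1.26 ± 0.19, adjusted p = 1.72e-07). N-cadherin (CDH2), an adhesion molecule of mesenchymal cells, had 28.6, 22.9 and 27.1 CPM and 44.6, 39.8 and 44.0 CPM (-0.71 ± 0.11). Thrombospondin-1 (THBS1), a secreted adhesive glycoprotein, had 309, 299 and 319.7 CPM and 430.5, 388 and 417 CPM (-0.42 ± 0.045). The fibril-associated collagen COL12A1 (-0.49 ± 0.088) and the collagen-modifying enzyme PLOD1 (-0.37 ± 0.071) fell as well. The 2 fibrillins, which build microfibrils, went opposite ways. FBN2 had 29.2, 29.03 and 31.1 CPM in fused cells and 17.4, 18.9 and 13.97 CPM in controls (0.84 ± 0.15), whereas FBN1 had 3.83, 5.22 and 5.79 CPM and 9.52, 10.3 and 9.05 CPM (-0.95 ± 0.24). On log2(TPM + 1) FBN1 was no longer called (adjusted p = 0.0732). The summed fibroblast markers given above, which hold MFAP5 and not FN1, were lower in fused cells too, and their part in the result was not tested. The list's count of fallen members ranged from 8 to 11 when any 1 library was left out.

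Chains of laminin-332 and some adhesion receptors, which attach basal cells to the basement membrane, were lower. Among 39 tested integrin, laminin and focal adhesion genes, 13 fell and 3 rose (41%, median -0.093), with 11 to 13 falling when any 1 library was left out and 1 rising without control replicate 3. The laminin-332 chain LAMB3 had 234, 226 and 237 CPM in fused cells and 318, 353 and 308 CPM in controls (-0.49 ± 0.051), and the chain LAMA3 had 60.7, 54.3 and 53.3 CPM and 79.2, 77.6 and 76.8 CPM (-0.47 ± 0.081). Of 10 tested integrin subunits 3 fell and none rose, and ITGA3 (0.08 ± 0.062, adjusted p = 0.464) and ITGB4 (0.15 ± 0.083, adjusted p = 0.283), subunits of the main receptors of laminin-332, were not called. The integrin subunits ITGA6 (-0.22 ± 0.042) and ITGB1 (-0.21 ± 0.041), the hyaluronan receptor CD44 (-0.20 ± 0.033), the actin linker PARVA (-0.59 ± 0.095) and the actin crosslinker ACTN4 (-0.27 ± 0.046) were lower too. Against this direction, the laminin chain LAMA5 had 70.8, 66.5 and 74.97 CPM in fused cells and 55.5, 45.7 and 50.2 CPM in controls (0.48 ± 0.090), a call lost in both TPM fits (adjusted p up to 0.0999). BCAM, a surface receptor for LAMA5, had 19.5, 24.7 and 17.7 CPM in fusion libraries and 12.8, 9.61 and 9.83 CPM in controls (0.93 ± 0.17).

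Secreted regulators showed the same mixture. Of 42 tested proteases and inhibitors, 9 fell and 2 rose (26.2%, median -0.15), and none of the 12 tested metalloproteinases was called. The protease inhibitors TIMP2 (-0.47 ± 0.073), SPINT2 (-0.33 ± 0.045) and PI3 (-1.53 ± 0.31) fell, the PI3 call being lost in both TPM fits (adjusted p up to 0.0652), and the intracellular inhibitor SERPINB1 rose, with 19.5, 24.4 and 21.9 CPM in fused cells and 11.4, 10.9 and 12.7 CPM in controls (0.90 ± 0.17). In the list of TGF-beta, activin and BMP signalling, 8 of 32 fell and 3 rose (34.4%, median -0.070). Its fallen members included the ligand BMP4, at 22.4, 18.6 and 17.98 CPM in fused cells and 30.7, 30.8 and 35.4 CPM in controls (-0.72 ± 0.13), the co-receptor TGFBR3 (-0.78 ± 0.19) and the BMP antagonist GREM1, and the inhibitor of differentiation ID4 rose by 0.47 ± 0.11. The fallen members numbered 5 without fusion replicate 1 or fusion replicate 2 and with DESeq2, and 1 rose without fusion replicate 2 or 3 or control replicate 1.

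The Hippo pathway, which restrains growth through the kinases LATS1 and LATS2 and ends on the coactivators YAP and TAZ with TEAD factors, had 10 of 40 tested genes lower and 1 higher (27.5%, median -0.11). The transcription factor TEAD1 had 171, 179 and 173 CPM in fused cells and 212, 214 and 204 CPM in controls (-0.27 ± 0.053), and the TEAD cofactor VGLL1 had 20.6, 18.3 and 19.5 CPM and 33.7, 36.5 and 26.1 CPM (-0.71 ± 0.13). Among targets of the pathway, tissue factor (F3) had 608, 610.4 and 612 CPM and 851, 806 and 847 CPM (-0.45 ± 0.037, adjusted p = 9.06e-17), and IGFBP3, which binds insulin-like growth factors, had 230.3, 217 and 248 CPM and 296, 299 and 300.3 CPM (-0.36 ± 0.049). Summed over the 22 tested targets, levels were 2429, 2391 and 2465 CPM in fused cells and 2943, 2913 and 2968 CPM in controls. A single target rose, ANKRD1, a muscle-type ankyrin repeat protein, at 78.7, 70.8 and 72.2 CPM in fused cells and 52.0, 54.7 and 48.6 CPM in controls (0.52 ± 0.085). The kinase gene LATS2 was not called, at -0.35 ± 0.18 (adjusted p = 0.237).

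Keratin and epithelial genes shifted in both directions. The basal keratin KRT14 had 104, 105 and 104 CPM in fused cells and 164, 151 and 154 CPM in controls (-0.59 ± 0.064, adjusted p = 9.57e-12), and KRT17 had 71.7, 70.5 and 74.4 CPM and 88.2, 101 and 102 CPM (-0.43 ± 0.077). The mucosal keratin KRT13 was higher, with 411, 389 and 400.1 CPM in fused cells and 295, 296 and 315 CPM in controls (0.41 ± 0.046, adjusted p = 5.41e-11). The homeobox factor IRX4 (-0.82 ± 0.15) and the cornified envelope protein SPRR1B (-1.04 ± 0.23) fell, none of 10 desmosomal genes was called, and the basal master regulator TP63 was not called (0.35 ± 0.12, adjusted p = 0.0504). Over the whole list of 32, 3 rose and 4 fell (21.9%, median -0.024). Of 45 epithelial and luminal genes, 8 rose and 6 fell (31.1%, median -0.031). ELF3, an epithelium-specific transcription factor, had 54.6, 48.5 and 56.4 CPM in fused cells and 29.4, 32.2 and 32.1 CPM in controls (0.77 ± 0.10), and AGR2, a disulfide isomerase of secretory cells, had 150.4, 111 and 129 CPM and 85.7, 82.5 and 85.1 CPM (0.62 ± 0.072). The tight junction protein CLDN1 (-0.50 ± 0.074) and the protease inhibitor SLPI (-0.67 ± 0.11) were lower. Among stem cell and Wnt genes, 2 of 37 rose and 4 fell (16.2%), the fallen being 2 without fusion replicate 1 or 2 and 1 without fusion replicate 3 or control replicate 3. SOX2, a pluripotency transcription factor, had 15.04, 15.1 and 17.98 CPM in fused cells and 7.62, 7.29 and 8.54 CPM in controls (1.02 ± 0.19).

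**Figure D2:**
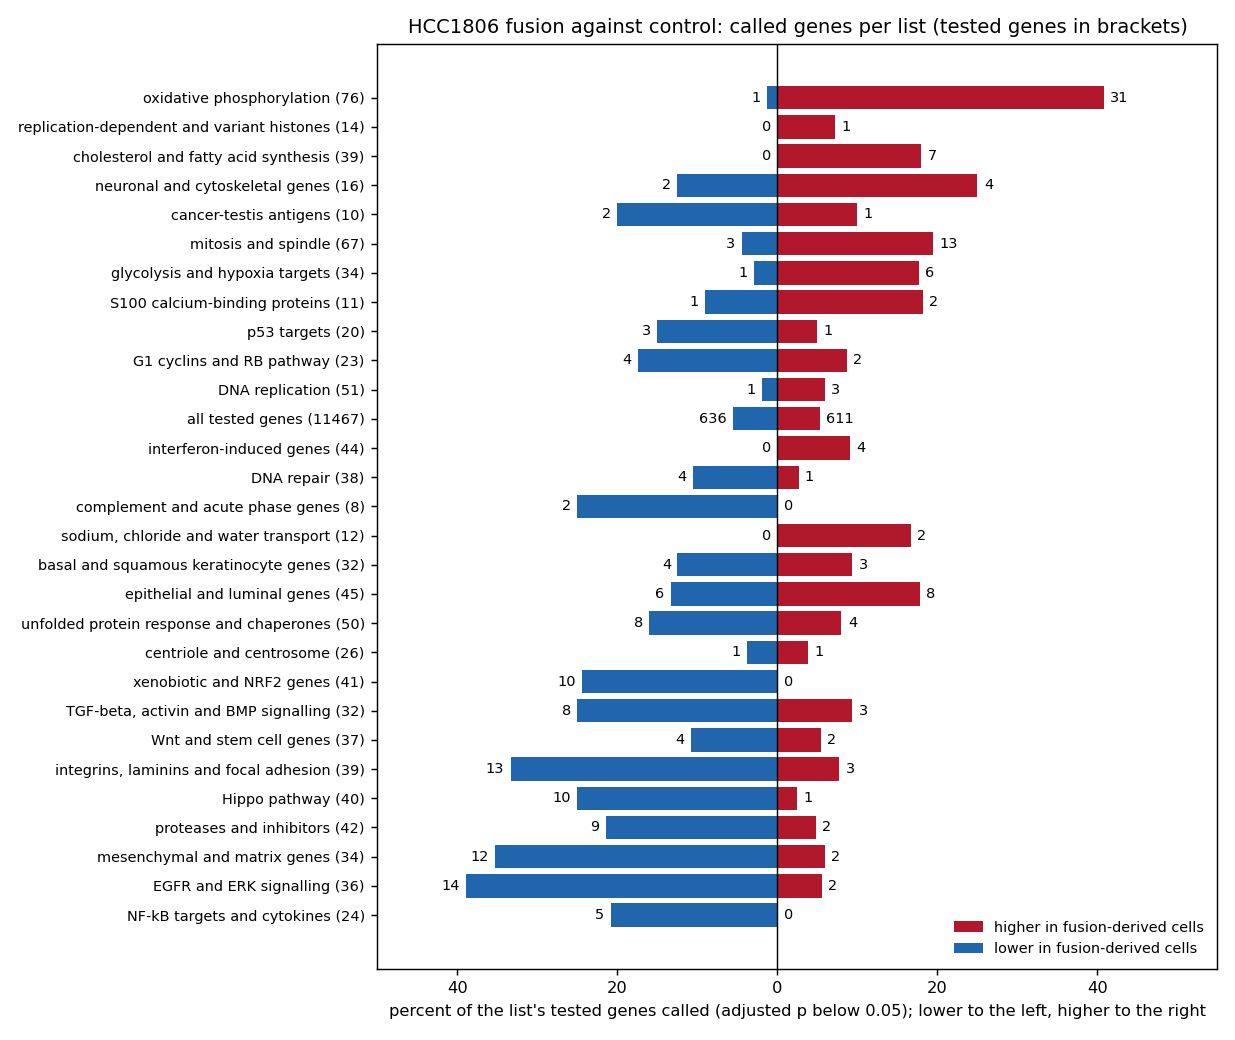
Percent of each list's tested genes that rose (to the right) or fell (to the left) in fused HCC1806 cells against control, with their numbers at the bars and the same for all tested genes. Oxidative phosphorylation holds the most risen members, 31 of 76, and the EGFR and ERK list the most fallen ones, 14 of 36.

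Cell division genes were slightly higher. In the mitosis and spindle list, 13 of 67 genes rose and 3 fell (23.9%, median 0.080), and 48 of the 67 had a change above 0. Among all genes in the quintile of highest level 14.1% rose and 11.6% fell, and the part of level in the list's share of calls was not tested. CDC20, the activator of the anaphase-promoting complex (chromosome 1, 43358981 to 43363203), had 301, 336 and 327 CPM in fused cells and 257, 248 and 254 CPM in controls (0.34 ± 0.048, adjusted p = 5.08e-08). The spindle checkpoint kinase BUB1 (chromosome 2, 110637528 to 110678063) had 84.3, 87.4 and 94.5 CPM and 64.5, 77.6 and 68.5 CPM (0.34 ± 0.075, adjusted p = 0.000523). All fusion libraries lay above all controls for both genes. The kinetochore proteins NDC80 (0.27 ± 0.066) and CENPN (0.25 ± 0.055) and the spindle protein DLGAP5 (0.23 ± 0.057) rose in edgeR's test and not in the TPM fits, where the adjusted p reached 0.180. The kinetochore scaffold CASC5, at 155, 161 and 153 CPM in fused cells and 189.7, 209 and 213 CPM in controls (-0.38 ± 0.057), and the microtubule-associated CKAP2, at 137, 133 and 133 CPM and 168, 183 and 174 CPM (-0.38 ± 0.058), fell. The risen members numbered 8 without fusion replicate 1 or control replicate 3, 7 without control replicate 1, 6 with DESeq2 and 2 in the TPM fits. The kinesin KIF18A, on which doubled and aneuploid cells are reported to depend, was not called, with 64.6, 57.5 and 67.7 CPM in fused cells and 53.3, 56.4 and 58.7 CPM in controls (0.17 ± 0.087, adjusted p = 0.233). The centrosome-clustering kinesin KIFC1 (0.06 ± 0.088, adjusted p = 0.741) and the centriole kinase PLK4 (-0.26 ± 0.16, adjusted p = 0.335) were not called either.

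Start regions of the leading mitotic genes and of SCD, the leading lipid gene, are shown for the CCAAT motif, a common element of cell cycle promoters. They lie at chr1:43358731-43359030 (plus strand), chr2:110678014-110678313 (minus strand) and chr10:100346983-100347282 (plus strand) on GRCh38.p14, and capitals again mark CCAAT or ATTGG.
CDC20: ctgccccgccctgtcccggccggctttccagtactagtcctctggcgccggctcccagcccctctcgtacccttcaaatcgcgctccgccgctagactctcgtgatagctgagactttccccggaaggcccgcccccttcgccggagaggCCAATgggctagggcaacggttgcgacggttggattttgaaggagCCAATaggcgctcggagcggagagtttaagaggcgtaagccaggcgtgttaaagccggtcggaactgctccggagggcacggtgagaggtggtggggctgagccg
BUB1: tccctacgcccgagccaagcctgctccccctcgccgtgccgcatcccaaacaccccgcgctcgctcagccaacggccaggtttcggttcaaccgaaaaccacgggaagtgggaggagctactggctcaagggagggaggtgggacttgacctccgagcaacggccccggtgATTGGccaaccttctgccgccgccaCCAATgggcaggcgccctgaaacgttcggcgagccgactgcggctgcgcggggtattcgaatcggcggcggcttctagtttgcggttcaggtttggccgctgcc
SCD: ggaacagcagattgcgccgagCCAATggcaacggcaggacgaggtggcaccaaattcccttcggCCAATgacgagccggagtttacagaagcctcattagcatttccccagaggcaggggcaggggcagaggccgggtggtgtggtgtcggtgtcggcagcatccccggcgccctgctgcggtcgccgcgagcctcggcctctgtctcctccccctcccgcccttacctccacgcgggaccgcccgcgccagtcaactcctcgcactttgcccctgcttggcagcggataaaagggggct
CCAAT began 100 and 55 bases before the start in CDC20, 79 (other strand) and 54 bases before it in BUB1, and 229 and 186 bases before it in SCD. With the motif in 38.0% of the windows of risen genes, beside 37.5% of those of all tested genes, its presence did not set the risen genes apart.

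Regulators of the G1 phase and of the damage response went both ways. In the list of G1 cyclins and the RB pathway 2 of 23 rose and 4 fell (26.1%, median 0.020), 15 of the 23 changes being above 0. The fallen numbered 2 without fusion replicate 1, control replicate 1 or control replicate 3, and no member rose with DESeq2. The risen members were the inhibitor CDKN1B (0.32 ± 0.097) and the repressor E2F4 (0.18 ± 0.059), whose calls were each lost without 4 single libraries (adjusted p up to 0.0885 and 0.165). The cyclin-dependent kinase inhibitor CDKN1A (p21), a target of p53, had 30.7, 32.5 and 31.7 CPM in fused cells and 47.3, 54.7 and 48.1 CPM in controls (-0.65 ± 0.11, adjusted p = 2.73e-06). Cyclin E1 (CCNE1), which drives entry into S phase, had 40.4, 45.9 and 44.5 CPM and 61.5, 62.3 and 60.5 CPM (-0.49 ± 0.092, adjusted p = 3.50e-05). The p53 targets PLK2 (-0.36 ± 0.058) and GADD45A (-0.29 ± 0.073) fell also, giving 3 fallen and 1 risen of 20 tested p53 targets (20%). Cyclin D1 (CCND1) was not called (0.06 ± 0.041, adjusted p = 0.361). The recombination gene BRCA2 had 58.7, 65.9 and 56.4 CPM in fused cells and 83.0, 81.9 and 109 CPM in controls (-0.61 ± 0.088, adjusted p = 7.26e-07), and CEP152, a scaffold for centriole duplication, had 23.0, 23.8 and 18.3 CPM and 34.0, 31.2 and 32.8 CPM (-0.59 ± 0.13). Otherwise DNA repair (1 of 38 rose, 4 fell), DNA replication (3 of 51 rose, 1 fell) and centriole genes (1 of 26 rose, 1 fell) had shares of called members of 13.2%, 7.84% and 7.69%, near the 10.9% of all genes. Fallen repair genes numbered 2 without control replicate 3, and risen replication genes 1 without fusion replicate 1 or 2. Geminin (GMNN), which blocks relicensing of origins, rose by 0.25 ± 0.060.

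Nuclear-encoded subunits of the respiratory chain were the list with the largest share of risen members in edgeR's test. Of 76 tested, 31 rose and 1 fell (42.1%, median 0.13), and 63 had a change above 0. Complex III stood highest, with 6 of 9 risen, and its summed level was 3572, 3366 and 3409 CPM in fused cells and 2887, 3023 and 2905 CPM in controls. Its Rieske iron-sulphur protein UQCRFS1 had 401, 376 and 389 CPM and 268, 281 and 282 CPM (0.49 ± 0.045, adjusted p = 2.12e-14), and UQCR11 had 501, 464 and 468 CPM and 375, 393 and 371 CPM (0.33 ± 0.043). In complex I, 13 of 38 rose, among them the flavoprotein NDUFV1, at 111, 122 and 113 CPM in fused cells and 86.8, 84.5 and 89.2 CPM in controls (0.41 ± 0.068), and NDUFB10 (0.35 ± 0.054). Complex IV had 3 of 10 risen, with COX5B at 327, 329 and 317 CPM and 262, 266 and 280.4 CPM (0.27 ± 0.047), and ATP synthase 8 of 15, with ATP5D at 168, 154 and 155 CPM and 118, 106 and 128 CPM (0.44 ± 0.073). The risen members numbered 23 to 28 when any 1 library was left out, 30 after a correction for GC content and transcript length, 20 with DESeq2, and 13 and 14 in the TPM fits. Short transcripts rose more often in general, as described below, and 54 of 77 ribosomal protein genes (RPL and RPS symbols, chosen after the values were seen) rose and 1 fell, their transcripts having a median length of 681.5 bases. None of the 13 genes of the mitochondrial genome was analysed here.

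Lipid genes rose at the regulatory end of the pathway. SREBP factors switch on lipoprotein uptake and the enzymes of cholesterol and fatty acid synthesis when sterols are low. Of 39 tested genes, 7 rose and none fell (17.9%, median 0.10). All 7 fell into the groups of regulators and uptake (5 of 7) and fatty acid enzymes (2 of 12), and none of the 20 cholesterol enzymes was called. Regulators and uptake genes summed to 147.4, 142.8 and 149.3 CPM in fused cells and 101.2, 104.1 and 107.3 CPM in controls. SCD, the desaturase that makes oleate, had 109, 89.1 and 92.6 CPM in fused cells and 49.3, 47.7 and 46.6 CPM in controls (1.02 ± 0.090, adjusted p = 3.06e-13). SREBF1, the gene of the lipogenic SREBP-1, had 40.4, 43.5 and 39.9 CPM and 27.2, 26.9 and 28.5 CPM (0.58 ± 0.11, adjusted p = 7.76e-05). The list's risen members numbered 4 without fusion replicate 3 or control replicate 1, 2 with DESeq2 and 3 in the TPM fits.

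Of 34 tested glycolytic enzymes and hypoxia targets, 6 rose and 1 fell (20.6%). Enzymes made up 20 of the 34 and gave 5 of the rises and the fall, and 1 of 14 hypoxia targets rose. Over the whole list 2 were risen with DESeq2, 2 without fusion replicate 2 or control replicate 2, and 3 without fusion replicate 3 or control replicate 1. The glycolytic isomerase GPI had 485, 498 and 492 CPM in fused cells and 376, 368 and 371 CPM in controls (0.40 ± 0.041), and the enolase ENO1 had 974, 1034 and 1004 CPM and 1139, 1221 and 1163 CPM (-0.23 ± 0.034). Both lie in stretches of chromosome described below in which neighbours moved the same way.

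Detoxification genes fell without exception among those called, 10 of 41 tested (24.4%, median -0.067). CYP1B1, a cytochrome P450 induced by the aryl hydrocarbon receptor, had 126, 131 and 127 CPM in fused cells and 215, 242 and 208 CPM in controls (-0.79 ± 0.059, adjusted p = 7.66e-19), and TIPARP, a repressor induced by the same receptor, had 10.9, 9.29 and 12.5 CPM and 19.3, 19.6 and 18.9 CPM (-0.82 ± 0.17). Of targets of the oxidative stress factor NRF2, the aldo-keto reductase AKR1C2 had 257, 261 and 258 CPM and 342, 367 and 353 CPM (-0.45 ± 0.047), the cystine transporter SLC7A11 had 165, 158 and 168 CPM and 210.1, 216 and 215 CPM (-0.38 ± 0.055), and the thioredoxin reductase TXNRD1 had 247, 269 and 267 CPM and 325, 329 and 299.8 CPM (-0.28 ± 0.048). None of 14 tested ABC transporters was called. The aldo-keto reductases are close copies of each other, so the split of reads between AKR1C genes is uncertain.

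Called NF-kB targets and cytokines were all lower, and called interferon-induced genes were all higher. Of 24 NF-kB targets and cytokines, 5 fell and none rose (20.8%, beside 10.9% of all genes, median -0.24). The fallen numbered 2 without fusion replicate 1, 3 without any 1 control and 1 with DESeq2. The prostaglandin synthase PTGS2 had 7.67, 11.6 and 9.45 CPM in fused cells and 22.9, 22.9 and 16.8 CPM in controls (-1.11 ± 0.18, adjusted p = 2.59e-06) and stayed called when any 1 library was left out. Interleukin-8 (IL8) had 5.31, 6.39 and 7.31 CPM and 11.7, 11.6 and 8.79 CPM (-0.75 ± 0.23, adjusted p = 0.0205), a call lost without fusion replicate 1 or 2 or control replicate 1 or 2 (adjusted p up to 0.118). Of 44 interferon-induced genes, 4 rose and none fell (9.09%), and 1 rose without fusion replicate 3 and 2 without control replicate 3. IFI44, an antiviral effector, had 41.6, 40.6 and 47.5 CPM in fused cells and 29.4, 25.2 and 29.7 CPM in controls (0.61 ± 0.12). None of 9 sensors and factors and none of 14 antigen presentation genes of that list was called. In the chaperone and unfolded protein list, 4 of 50 rose and 8 fell (24%), with 3 falling with DESeq2, 4 falling without fusion replicate 1, 5 falling without control replicate 3, and 2 rising without fusion replicate 2 or 3 or control replicate 3. Of 11 tested S100 calcium-binding proteins, 2 rose and 1 fell, S100A2 being higher with 3706, 3728 and 3757 CPM in fused cells and 3192, 3259.7 and 3056 CPM in controls (0.24 ± 0.030) and S100A6 higher with 1138, 1103 and 1148 CPM and 962, 1027 and 982 CPM (0.19 ± 0.035). The complement inhibitor CD55 fell, with 103, 101 and 100.0 CPM in fused cells and 143, 146 and 129.6 CPM in controls (-0.46 ± 0.064).

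The called genes were unevenly spread over the chromosomes. RefSeq positions on GRCh38.p14 were found for 11216 of the tested genes (97.8%), and 41 arms held at least 20. On the short arm of chromosome 5, 30 of 95 genes fell, with a median change of -0.19. Its median over genes, relative to the mean of the controls, was -0.21, -0.17 and -0.20 in the fusion libraries and 0.003, 0.024 and -0.020 in the controls. On 20p, 21 of 99 fell (median -0.15), on 15q, 59 of 372 (median -0.11), and on 13q, 37 of 200 (median -0.064), and at most 3 genes rose on any of these arms. All 3 fusion libraries were below all 3 controls in the median of each of these arms. Such separation was not particular to them, the fusion libraries also lying below all controls on 10p and 2p and above all controls on 16p and 17p. The 4 arms 5p, 20p, 15q and 13q, picked for their share of fallen genes, held 6.68% of the tested genes, 147 of the 636 fallen ones (23.1%) and 8 of the 611 risen ones (1.31%). At the other end, 24 of 271 genes rose on 16p (median 0.096), 24 of 263 on 22q (median 0.080) and 41 of 362 on 19p (median 0.039), where 10 fell. Genes rich in GC rose more often in general, as described below, and the arms' base composition was not set beside these counts. DESeq2 called 11, 10 and 20 risen genes on 16p, 22q and 19p, and limma-trend on log2(TPM + 1) called 10, 10 and 17, with a 19p median of -0.002. DESeq2 called 19 fallen genes on 5p, 8 on 20p, 29 on 15q and 25 on 13q.

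**Figure D3:**
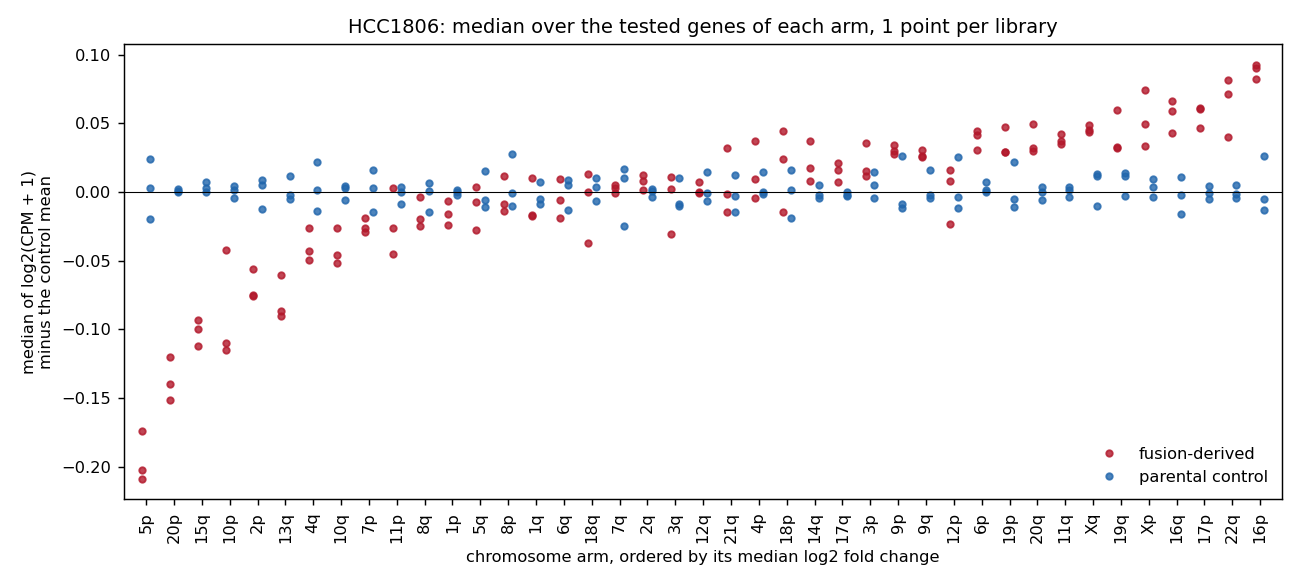
Median over each chromosome arm's tested genes of log2(CPM + 1) minus the mean of the controls, in each fusion and each control library of HCC1806. The fusion libraries lie at -0.21 to -0.17 on 5p and the controls between -0.020 and 0.024.

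Most of the fallen genes of 13q lay in a single stretch. Between positions 41311267 and 52194467 of chromosome 13, 25 of 47 tested genes fell and none rose, 44 of the 47 changes were below 0, and the median was -0.43. This stretch was chosen for its low values, and the counts describe it. The rest of 13q had 12 of 153 fallen and 3 risen, with a median of -0.009. Library medians over the stretch were -0.41, -0.45 and -0.36 in fused cells and -0.018, 0.010 and 0.008 in controls, so that the libraries of each group lay close together. AKAP11, an anchoring protein of protein kinase A, had 36.9, 45.6 and 40.8 CPM in fused cells and 66.4, 69.6 and 68.3 CPM in controls (-0.73 ± 0.090). The general transcription factor subunit GTF2F2 had 160.4, 150.4 and 170.0 CPM and 217, 241 and 209 CPM (-0.47 ± 0.056), the nuclear import receptor KPNA3 had 124, 131 and 114 CPM and 175, 187 and 175 CPM (-0.54 ± 0.061), and ITM2B had 196, 176 and 182 CPM and 243, 252 and 219 CPM (-0.36 ± 0.054). Successive tested genes from ZC3H13 to RB1 (45954465 to 48481890), 9 in all, were each called lower. RB1, the retinoblastoma tumour suppressor at the end of that run, had 37.7, 35.4 and 35.4 CPM in fused cells and 44.1, 47.4 and 43.2 CPM in controls (-0.31 ± 0.10, adjusted p = 0.0417), and its call was lost when any 1 of the 6 libraries was left out (adjusted p 0.0592 to 0.134) and with DESeq2 (0.189).

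Shorter runs of neighbours fell elsewhere. On 5p, 6 successive tested genes from FAM105B to BASP1 (14664718 to 17276834) were lower, FAM105B losing its call without fusion replicate 1 or 2 or control replicate 1 or 2 (adjusted p up to 0.0955). They include ANKH, a pyrophosphate transport protein, at 60.5, 64.1 and 61.9 CPM in fused cells and 78.9, 83.2 and 85.4 CPM in controls (-0.41 ± 0.077), the filopodial motor MYO10, at 188, 179.7 and 174 CPM and 242, 238 and 229 CPM (-0.39 ± 0.054), and the membrane-bound signalling protein BASP1, at 21.2, 22.6 and 13.4 CPM and 43.3, 48.4 and 44.7 CPM (-1.24 ± 0.15). On 19q, 5 successive genes from POP4 to URI1 (29606283 to 30016612) fell, PLEKHF1 losing its call without any 1 library but control replicate 2 (adjusted p up to 0.304). CCNE1 lies among them, beside the ribonuclease P subunit POP4 at 342, 345 and 320.0 CPM in fused cells and 407, 416 and 397 CPM in controls (-0.28 ± 0.044) and the chaperone-like URI1 at 346, 343 and 354 CPM and 427, 435 and 415 CPM (-0.29 ± 0.044). Farther along the same arm (34172504 to 35658782), 9 of 20 genes rose and none fell, with a median of 0.33, among them the SUMO-activating subunit UBA2 at 258, 265 and 272 CPM in fused cells and 170.1, 165 and 183 CPM in controls (0.61 ± 0.053), GPI and the ion transport regulator FXYD3 at 489, 499 and 503 CPM and 385, 364 and 395 CPM (0.38 ± 0.043). For scale, the 2.5th and 97.5th percentiles of the median change over 10760 windows of 20 successive genes were -0.22 and 0.15. On 1p, 4 genes from PARK7 to ENO1 (7961711 to 8878686) fell, ERRFI1 losing its call without fusion replicate 1 or 2 or control replicate 1 or 3 (adjusted p up to 0.247). PARK7, a redox-sensitive chaperone, had 397, 389.5 and 363 CPM in fused cells and 486, 448 and 457 CPM in controls (-0.27 ± 0.043). On 15q, 4 genes from FBN1 to SECISBP2L, CEP152 among them, fell (48408313 to 49046446), and SECISBP2L lost its call without fusion replicate 2 or 3 or control replicate 2 or 3 (adjusted p up to 0.132).

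**Figure D4:**
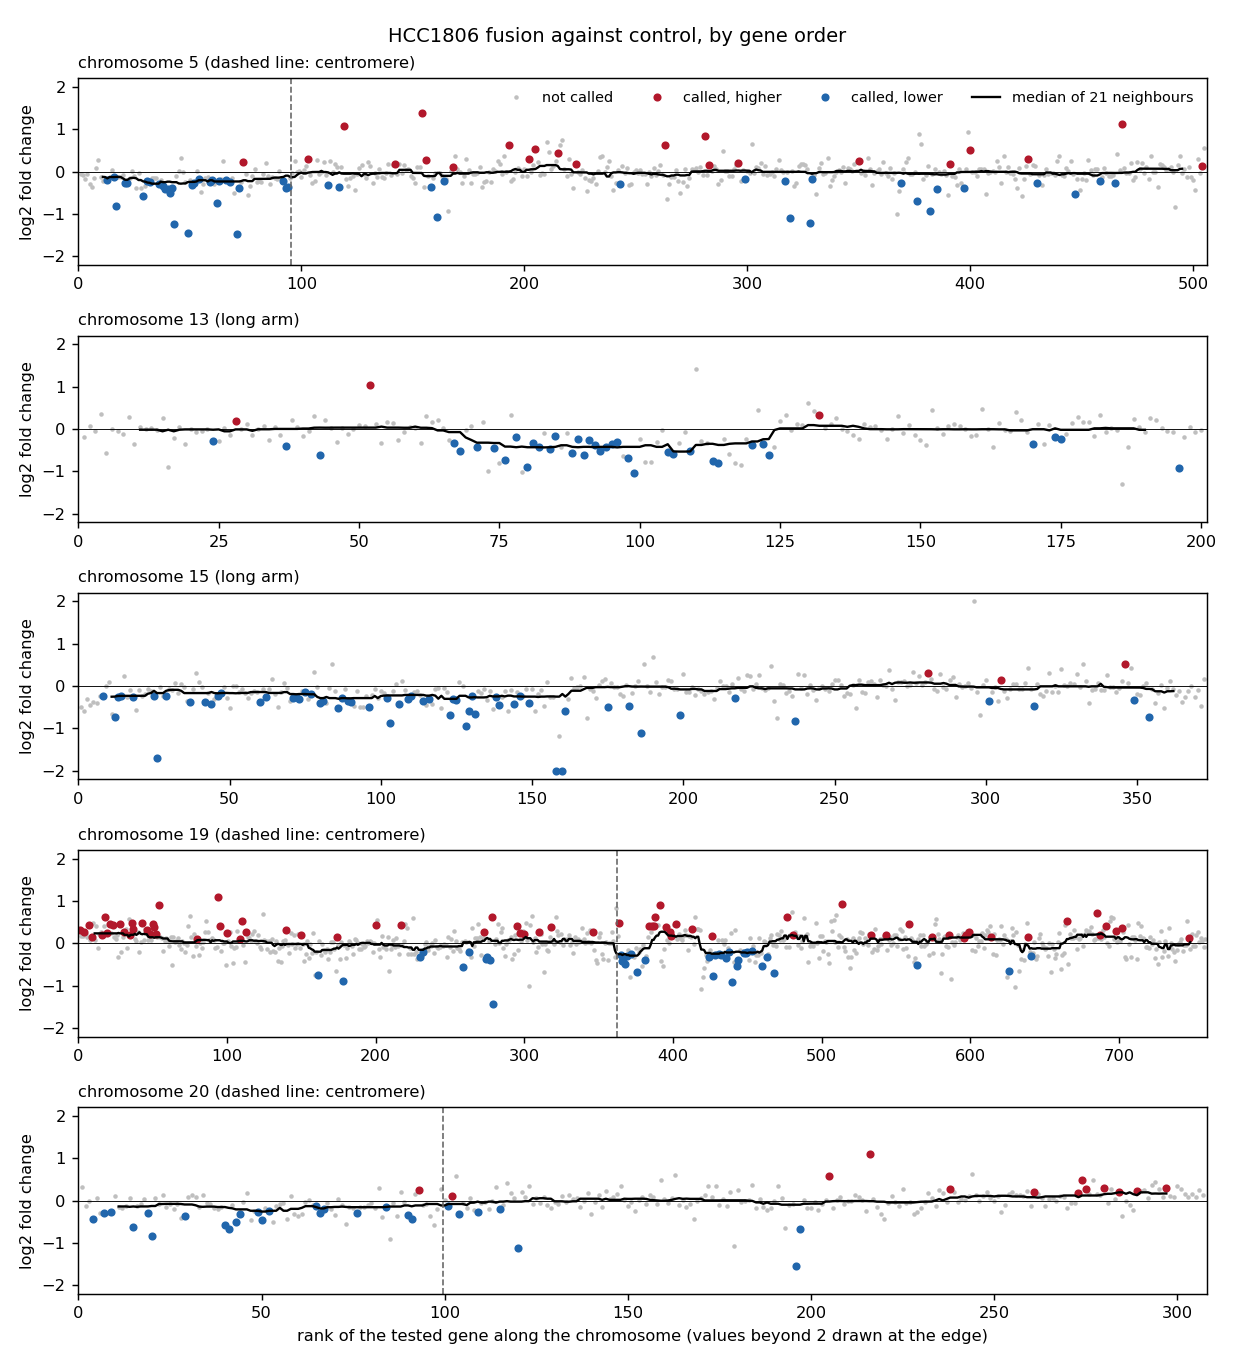
Log2 fold change of fusion over control for the tested genes of HCC1806, in gene order along chromosomes 5, 13, 15, 19 and 20, with called genes coloured and a black line for the running median of 21 neighbours. The line dips on the left of chromosome 5, in the middle of chromosome 13 and on the left of chromosome 15, and chromosome 19 shows called genes of both directions in blocks.

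Several of the named falls lay on those 4 arms. All called members of the gene lists located there were lower in fused cells, on arms picked for their fallen genes (147 fallen and 8 risen in all). Among them were BRCA2 and CKAP2 on 13q, GREM1, THBS1, FBN1, CEP152 and CASC5 on 15q, and IRX4 on 5p. With the 4 arms left out, as an alternative added after the data were seen, the mitosis list held 13 risen and no fallen of 58 genes, oxidative phosphorylation 31 risen and none fallen of 73, DNA repair 1 and 1 of 33, and the mesenchymal and matrix list 2 risen and 9 fallen of 30. The EGFR and ERK list held 2 risen and 13 fallen of 35. Because the arms were picked for fallen genes, leaving them out removes mostly fallen members by choice, and these counts only describe what remains. DNA copy number was not analysed here, and its part in these changes was not tested.

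Called genes differed in length and base composition. Risen genes had a median transcript length of 1058.5 bases and fallen genes 2190, beside 1816 in all tested genes. Median GC content was 55% in the risen, 47.1% in the fallen and 49.6% in all tested genes. In the quintile of shortest transcripts 10.7% of genes rose and 4.28% fell, and in that of the longest 2.6% rose and 8.23% fell. In the quintile richest in GC 9.1% rose and 2.65% fell, and in the poorest 3.71% rose and 6.83% fell. Each library's trend of log2 CPM on both features was also taken into edgeR's count model as an offset. With it 1141 genes were called, 598 higher and 543 lower. The part of RNA integrity in these differences was not tested.

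Fused cells were also set beside the other doubled populations of the line. Against the mean of slippage and cytokinesis failure, 1761 of 11467 genes were called (15.4%), 882 higher (7.69%) and 879 lower (7.67%), and on log2(TPM + 1) 311 were higher and 860 lower. Against slippage alone 1058 were called (9.23%), 482 of them higher (4.2%) and 576 lower (5.02%). Against cytokinesis failure alone 2055 were called (17.9%), 1028 higher (8.96%) and 1027 lower (8.96%). CCNA1, a germ cell cyclin A, had 36.6, 39.2 and 38.7 CPM in fusion, 10.1, 10.2 and 9.23 in slippage, 6.72, 8.09 and 8.65 in cytokinesis failure and 15.5, 19.2 and 20.9 in control (difference from the other doubled cells 2.12 ± 0.13). The interstitial collagenase MMP1 had 268, 275 and 274 CPM in fusion, 114, 120.1 and 123 in slippage, 38.1, 52.4 and 57.1 in cytokinesis failure and 212, 251 and 245 in control (1.83 ± 0.069 against the other doubled cells), and was not called against control (adjusted p = 0.0636). The hyaluronan synthase HAS2 had 42.8, 46.4 and 46.6 CPM in fusion, 19.3, 15.6 and 19.6 in slippage, 9.21, 6.26 and 6.92 in cytokinesis failure and 28.8, 35.8 and 32.8 in control (1.95 ± 0.12). For each of these, fused cells were highest and the other doubled populations were below control. DKK3 differed from the other doubled cells by -3.91 ± 0.37, with 7.35, 5.41 and 9.23 CPM in slippage and 12.5, 11.5 and 12.1 CPM in cytokinesis failure. Several genes that fell against control were nevertheless above the other doubled cells, among them KRT14 (0.63 ± 0.063), AREG (0.37 ± 0.064) and CD44 (0.19 ± 0.029). In the EGFR and ERK list, 11 of 36 were higher and 4 lower than in the other doubled cells (median 0.15), and in oxidative phosphorylation 14 of 76 were higher and 2 lower (median 0.043). Both comparisons use the same fusion libraries. In the 13q stretch, 29 of 47 genes were lower than in the other doubled cells and none higher.

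**Figure D5:**
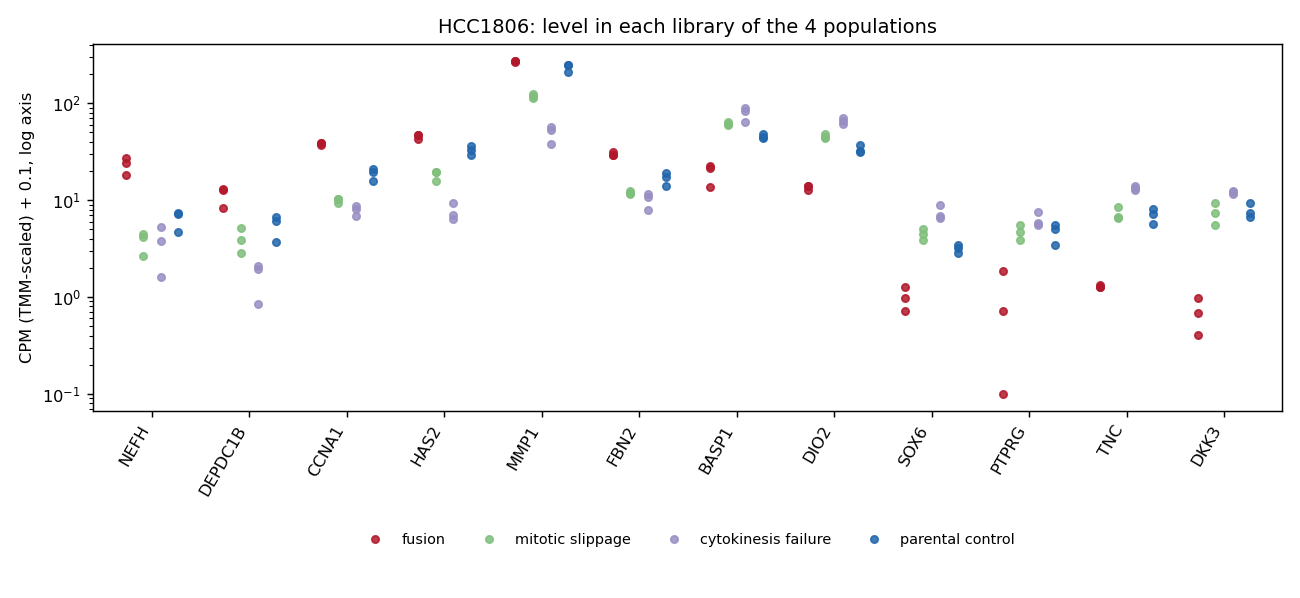
CPM + 0.1 on a log axis in each library of the 4 HCC1806 populations (fusion, slippage, cytokinesis failure, control) for genes named for their difference between fused and other doubled cells. CCNA1 lies at 36.6 to 39.2 CPM in fusion and at 6.72 to 10.2 CPM in the other doubled cells, and DKK3 lies below 1 CPM in fusion alone.

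The change on fusion in HCC1806 differed from that in MDA-MB-231 in 1513 of 12563 genes (12% in an interaction contrast over 24 libraries), 688 with a higher (5.48%) and 825 with a lower value (6.57%) in HCC1806. On log2(TPM + 1) these were 872 and 487. In MDA-MB-231, fused cells differed from their own control in 1993 of 11424 genes (17.4%), 1067 higher (9.34%) and 926 lower (8.11%). Of 10369 genes tested in both lines, 86 rose in both (14.9% of the 576 risen in HCC1806 and 8.65% of the 994 risen in MDA-MB-231) and 63 fell in both (11.5% of the 548 fallen in HCC1806 and 7.65% of the 823 fallen in MDA-MB-231). In 56 the gene rose in HCC1806 and fell in MDA-MB-231 (9.72% and 6.8% of those), and in 101 it fell in HCC1806 and rose in MDA-MB-231 (18.4% and 10.2%). The lines share no libraries. All 56 and all 101 genes with opposite calls also passed the test of the difference. That test uses the same libraries, so opposite calls made this outcome all but certain and it adds no separate evidence. On 5p, 31.6% of the tested genes fell in HCC1806 and 2.47% in MDA-MB-231 (medians -0.19 and 0.035). On 20p the shares were 21.2% in HCC1806 and 25.5% in MDA-MB-231 (medians -0.15 and -0.19). On 15q they were 15.9% and 8.23%, and on 13q 18.5% and 2.76%, in the same order of lines. In the 13q stretch, 6 of 43 genes were higher and none lower in fused MDA-MB-231 cells (median 0.15), and 23 of 47 passed the test of the line difference, all lower in HCC1806. The 4 genes of the 1p run were all higher in fused MDA-MB-231 cells and all passed that test. SEMA6B, an axon guidance protein, showed the crossing at levels well above the floor. It had 12.1, 14.5 and 9.45 CPM in fused and 6.26, 6.30 and 4.40 CPM in control HCC1806 cells, and 27.9, 32.3 and 48.7 CPM in fused and 71.0, 71.3 and 76.8 CPM in control MDA-MB-231 cells (difference 2.11 ± 0.42, adjusted p = 0.00213).

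No gene that was at 0 in all libraries of a group was called, but most of those counted here were removed by the filter on low counts and so were not tested. With at least 10 counts over the other group required, 17 genes were at 0 in all fusion libraries and 11 in all controls. Most are copies of multigene families, such as U1 small nuclear RNA genes and MAGEA9B, among which reads may be split arbitrarily. MAGEA9B had 0 counts in fused cells and 15.87, 22.11 and 17.58 estimated counts in controls, which is at least 18-fold lower against a floor of 3 counts over the group (adjusted p = 0.118).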

How the data were processed

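TAGseq libraries of HCC1806 fusion and control cells were compared, with the other libraries of the series for the fit and for context. The deposited values are estimated counts per gene and TPM, made by the authors with STAR and Salmon on GRCh38, per the submitters' processing notes. Versions, annotation, strand setting and use of molecular identifiers are not given in the sources used here, so overlapping and antisense genes are uncertain. RNA was normalized before library preparation, per the labels' protocols. Of the deposited estimated counts 4.41% were not whole, and all were rounded. The tables hold 29744 genes, 61 names being repeated.

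Counts of the 12 HCC1806 libraries in 4 groups were scaled by TMM after filtering with filterByExpr and fitted in edgeR 4.0.16 (R 4.3.3) by its robust quasi-likelihood method, and adjusted p below 0.05 was a call. All 24 libraries were used for the difference between lines. A standard error is the size of the log2 fold change over the square root of F. Alternatives were DESeq2 1.42.0, RLE factors, other filters, limma 3.58.1 on log2(TPM + 1) and log2(TPM + 0.1), the 6 libraries alone, a replicate block and leaving out each library. A correction for GC content and length, and lists without 4 arms, were added after the data were seen. Lists are described by counts and medians, with no set test. On data simulated from these libraries (11364 genes), 67 of 100 genes changed by 0.5 and 94 of 100 changed by 1 on the log2 scale were recovered with 8 false calls (4.73%). The changed genes were drawn only from those of higher counts, and each gene's spread was taken from the trend over level. Recovery was therefore not measured for genes of low counts, nor for changes as small as the median size among called genes, 0.32.

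The members, lists and tests were chosen with earlier results of these data known. Named genes were the 15 rising and 15 falling called genes of largest change with mean log2 CPM of at least 2 and groups that do not overlap, up to 4 members of each list by adjusted p, 10 and 10 against the other doubled cells, 5 and 5 for the line difference, genes in the longest runs of neighbours or at 0 in a group, and a fixed set such as KIF18A and TP63. Further list and neighbour genes were named after their values were seen. Of 166 named genes, 114 had a RefSeq promoter, and 46 list symbols were matched through older names. Standard errors come from edgeR's fit and include the spread between replicates, whereas floors cover counting error only. Low-pass genome sequencing was not analysed here. Some genes are not reported here.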

Additional observations from a re-analysis of the deposited data

Results flagged for a closer look

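The change on fusion differed between the lines in 1513 of 12563 genes by edgeR's test of the difference itself, and 10 genes are named for the size of that difference. Differences are log2 fold changes in HCC1806 minus those in MDA-MB-231. HENMT1, which methylates small RNAs (6.13), ALPP, a placental phosphatase (2.69), DBNDD1 (2.51), SEMA6B (2.11) and C1orf106 (2.03) were higher by this measure. MGMT, which repairs alkylated DNA (-5.51), TMEM98 (-5.14), the muscarinic receptor CHRM3 (-4.81), the glycosyltransferase GALNT14 (-4.44) and the haematopoietic signalling protein HCLS1 (-4.02) were lower.

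Most of these differences rest on few counts in MDA-MB-231, where HENMT1 had 0 CPM in all 3 fused libraries and 2.75, 1.49 and 1.29 CPM in controls, and MGMT had 1.25, 1.17 and 1.48 CPM in fused cells and 0 in all 3 controls. In HCC1806, HENMT1 had 12.98, 15.4 and 16.2 CPM in fused cells and 9.80, 11.9 and 11.4 CPM in controls. SEMA6B and DBNDD1 are the only 2 of the 10 that were also tested and called in MDA-MB-231 alone.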

How the results depend on the processing

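Of 11467 genes, the 1247 called in fusion against control became 630 with DESeq2, 706 on log2(TPM + 1), 714 on log2(TPM + 0.1) and 86 at 2-fold or more. Against the other doubled cells, 1761 became 977, 1171 and, on log2(TPM + 0.1), 1179. The line difference, 1513, became 1007 with DESeq2. Leaving out 1 library gave 915 to 991, 1285 to 1734 and 1219 to 1413 calls in these comparisons. RLE factors, other filters, the 6 libraries alone (1335) and the GC and length correction (1141) stayed within 1.5 times. The share of risen among called genes was lower in the TPM fits, 234 higher and 472 lower on log2(TPM + 1), and the median change of all genes there was -0.037. The causes were not tested.

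Same-numbered fusion and control libraries did not deviate together (r of -0.057, 0.013 and -0.066 over genes), so the numbers do not pair them. With the replicate number as a block, 1236, 1749 and 1470 genes were called. Of 348 called genes that are named or belong to lists or runs, 197 kept the call without any 1 library and 165 under every alternative. KIFC1, not called, changed sign without control replicate 1 (-0.038, adjusted p = 0.877, beside up to 0.128 without any other library). In the quintile of genes of lowest level 1.3% rose and 2.65% fell, beside 14.1% and 11.6% in the highest, and the part of sequencing depth in this was not tested.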
